A study of Gallus gallus with 5 samples.

Results

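INHBA and WWP1 are 2 genes of the activin and transforming growth factor beta (TGF-beta) axis, and their expression was followed in the liver of broiler breeder hens, the parents of meat chickens. Of 5 hens, 2 had been fed without limit (FF1 and FF2) and 3 had been held to a restricted allowance (RF1, RF2 and RF3), with the feeding groups set up at 38 weeks of age. No genotype, line or end of the feeding period is given in the labels used here. The deposited table listed estimated RNA-seq counts for 6286 gene symbols, of which 4309 passed a filter on low counts and were tested, INHBA and WWP1 among them. Both genes were chosen on measured values, namely their FF against RF difference in a fit across all tested genes. In that fit, by edgeR's quasi-likelihood test, 7 genes (0.162%) had a Benjamini-Hochberg adjusted p below 0.1. INHBA stood number 5, with an adjusted p of 0.0903, and WWP1 was the last inside at 0.0940, while SKP2 lay just outside at 0.107 (edgeR). Neither of the 2 genes passed 0.05 in that fit, but both did in DESeq2, where the adjusted p was 6.36e-09 for INHBA and 8.05e-06 for WWP1. At that threshold DESeq2 called 79 of all 4309 tested genes (1.83%), where edgeR called 2 (0.0464%). Over 13 alternatives it ranged from 6.36e-09 to 0.484 for INHBA, which was also under 0.05 by edgeR without the filter on low counts (0.0429). For WWP1 it ranged from 8.05e-06 to 0.597, with DESeq2 alone under 0.05. Leaving out FF1 or FF2 leaves 1 hen in FF, so the p of those fits holds no spread between FF hens. Only the log2 fold changes of those fits are read below. As this contrast chose the genes, their FF against RF differences below are descriptions and not tests.

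INHBA encodes the beta A subunit that pairs with itself to form activin A and with the alpha subunit (INHA) to form inhibin A. Activin binds the type II receptors ACVR2A and ACVR2B, which recruit a type I receptor that phosphorylates SMAD2 and SMAD3, and follistatin (FST) binds activin outside the cell and blocks it. In the hen, inhibin A from ovarian follicles restrains follicle-stimulating hormone, and in the mammalian liver activin A is known as a brake on hepatocyte growth. WWP1 encodes a ubiquitin ligase of the NEDD4 family, whose WW domains dock on proline-rich motifs of its substrates. In human cells WWP1 was reported to act on the TGF-beta receptor TGFBR1 and on SMAD2, with SMAD7 or TGIF1 as adaptor.

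Library totals ranged from 2666609 estimated counts (FF2) to 4622392 (FF1). The FF2 library stood apart, at 44.5 on a first principal component that held 50.7% of the variance, where the other 4 libraries lay between -28.0 and -1.75. All 11 hepatocyte markers in the table were tested, and levels are given as counts-per-million (CPM, scaled by the trimmed mean of M values). Their summed level was 204584 CPM in FF1, 207461 CPM in FF2 and 169189 to 248289 CPM in RF. VTG1 alone held 55848 to 107169 CPM, so the sum weighs abundant genes most. In edgeR 0 of the 11 passed 0.05, and before adjustment 2 were higher and 0 lower (4.41% and 4.94% of all tested genes). Because whole tissue was sequenced, fewer cells of a type and less RNA per cell cannot be told apart.

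INHBA transcripts were scarce in the restricted livers and moderately abundant in both livers of hens fed without limit. The level in FF1 was 58.9 CPM, from 287 estimated counts with an exact 95% Poisson interval of 255 to 322. FF2 stood at 192 CPM, from 528 counts (interval 484 to 575). The restricted hens RF1, RF2 and RF3 had 10.1, 7.93 and 10.98 CPM, from 43 counts (31.1 to 57.9), 27 counts (17.8 to 39.3) and 47 counts (34.5 to 62.5). Both FF hens lay above all 3 RF hens, as in 13.1% of all tested genes, and the lower FF hen stood at 5.36 times the highest RF hen. These intervals cover counting error alone.

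Mean INHBA expression was 125 ± 94.1 CPM in FF (SD, n = 2) and 9.68 ± 1.57 CPM in RF (SD, n = 3). The log2 fold change was 3.68 ± 0.50 (SE). That size was set by FF2 more than by any other hen: it fell to 2.61 once FF2 was left out, rose to 4.29 once FF1 was, and lay at 3.56 to 3.79 when an RF hen was left out. Within a hen, 59.3% of tested genes had a lower CPM than INHBA in FF1 and 84.4% in FF2, against 17.8%, 13.3% and 18.7% in RF1, RF2 and RF3. INHBA thus ranked low among the tested genes in RF livers and above their middle in FF livers, on a scale that takes no account of transcript length.

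WWP1 differed less in size and was steadier between hens. The level was 118 CPM in FF1 (576 counts, interval 530 to 625) and 143 CPM in FF2 (394 counts, 356 to 435). The restricted hens RF1, RF2 and RF3 had 36.0, 43.5 and 35.1 CPM, from 153 counts (130 to 179), 148 counts (125 to 174) and 150 counts (127 to 176). Both FF hens again lay above all RF hens, as in 13.1% of all tested genes, and the lower FF hen stood at 2.72 times the highest RF hen. The mean was 131 ± 17.8 CPM in FF (SD, n = 2) and 38.2 ± 4.61 CPM in RF (SD, n = 3). The log2 fold change was 1.77 ± 0.25 (SE), with values of 1.64 to 1.90 when single hens were left out. Of tested genes, 75.2% (FF1) and 80.0% (FF2) lay below WWP1 in the FF livers and 44.7% (RF3) to 50.1% (RF2) in the RF livers.

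**Figure D1:**
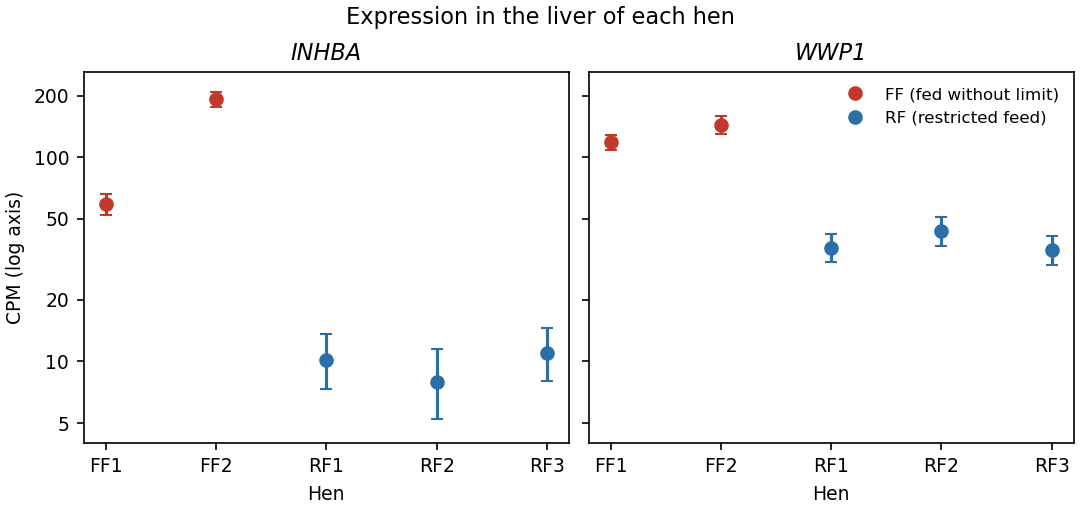
INHBA (left) and WWP1 (right) in each hen, as CPM on a log axis, with exact 95% Poisson intervals of the counts as bars. Both FF hens (red) lie above the 3 RF hens (blue) for either gene; INHBA spans 7.93 to 192 CPM and WWP1 35.1 to 143 CPM.

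The genes also differed in how the FF hens compared with each other, which is not the contrast that chose them, though spread between hens enters the p of that contrast. INHBA was 3.26 times as high in FF2 as in FF1, with an exact 95% interval of 2.82 to 3.78 from the counts, and WWP1 was 1.21 times as high (1.06 to 1.38). Of tested genes, 94.1% had a smaller gap between the FF hens than INHBA on the log2 scale and 28.9% had a smaller gap than WWP1. The gap of INHBA was 1.70 log2 units and that of WWP1 0.28, where the median size over all tested genes was 0.52. In FF2, the library that stood apart, 69 genes exceeded FF1 by more than INHBA did.

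Among RF hens both genes had a smaller range than the median tested gene. Of tested genes, 37.2% had a smaller RF range than INHBA and 21.3% a smaller one than WWP1. Both genes were chosen through a small p, which favours a small spread within groups, so these spreads are descriptions. The highest RF hen was 1.38 times the lowest for INHBA and 1.24 times for WWP1, ranges of 0.45 and 0.31 log2 units against a median of 0.56 over all tested genes. The coefficient of variation was 75.0% in FF and 16.3% in RF for INHBA, and 13.6% and 12.1% for WWP1. The biological coefficient of variation that edgeR estimated was 38.4% for INHBA, above that of 84.6% of tested genes, and 23.8% for WWP1, above that of 7.75%, where the value common to all genes was 32.4%.

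The 2 other subunits in the table, INHBB and INHA, were almost undetected, and INHBC and INHBE were not analysed here. INHBB, the beta B subunit of activin B, had 0 and 1 counts in FF1 and FF2 and 3, 0 and 0 in the RF hens. INHA, the inhibin alpha subunit, had 1 count in RF2 and 0 in the other 4 hens. Both fell below the filter, so that INHBA was the single activin or inhibin subunit tested. Markers of ovary and other steroid-forming tissue were low as well: the summed level of the 10 in the table was 21.3 CPM in FF1 and 69.1 CPM in FF2, and 27.8 to 49.0 CPM in RF. In that list the luteinizing hormone receptor LHCGR and the aromatase CYP19A1 were listed at 0 in each hen, and the follicle-stimulating hormone receptor FSHR lay at 2.26 to 4.99 CPM. The steroid enzyme gene HSD3B2 made up most of the sum in FF2: it was at 10.3 CPM in FF1, 57.8 CPM in FF2 and 16.4 to 31.8 CPM in RF (0.50 ± 0.65 on the log2 scale). Its part in the INHBA value of FF2 was not tested.

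Outside INHBA and WWP1, the axis held 65 tested genes in 7 lists of ligands, receptors, antagonists, SMADs, ligases, substrates and targets. Of them 0 passed an adjusted p of 0.05 in edgeR, where 2 of all tested genes (0.0464%) did. At an unadjusted p under 0.05, 1 was higher in FF (1.54%, against 4.41% of all tested genes) and 6 were lower (9.23%, against 4.94%). DESeq2 called 2 of the 65, BMPR1B and SMAD1, and 1.83% of all genes, and limma-voom called 0. The median log2 fold change of the 65 was -0.06, against 0.01 over all tested genes, and the highest was 0.996, that of CXCR4. For the counts above 0 given by list below, 2182 of all 4309 tested genes lay above 0. Both FF hens lay above all RF hens in 7 of the 65 (10.8%, against 13.1% of all tested genes) and below them in 14 (21.5%, against 13.9%).

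**Figure D2:**
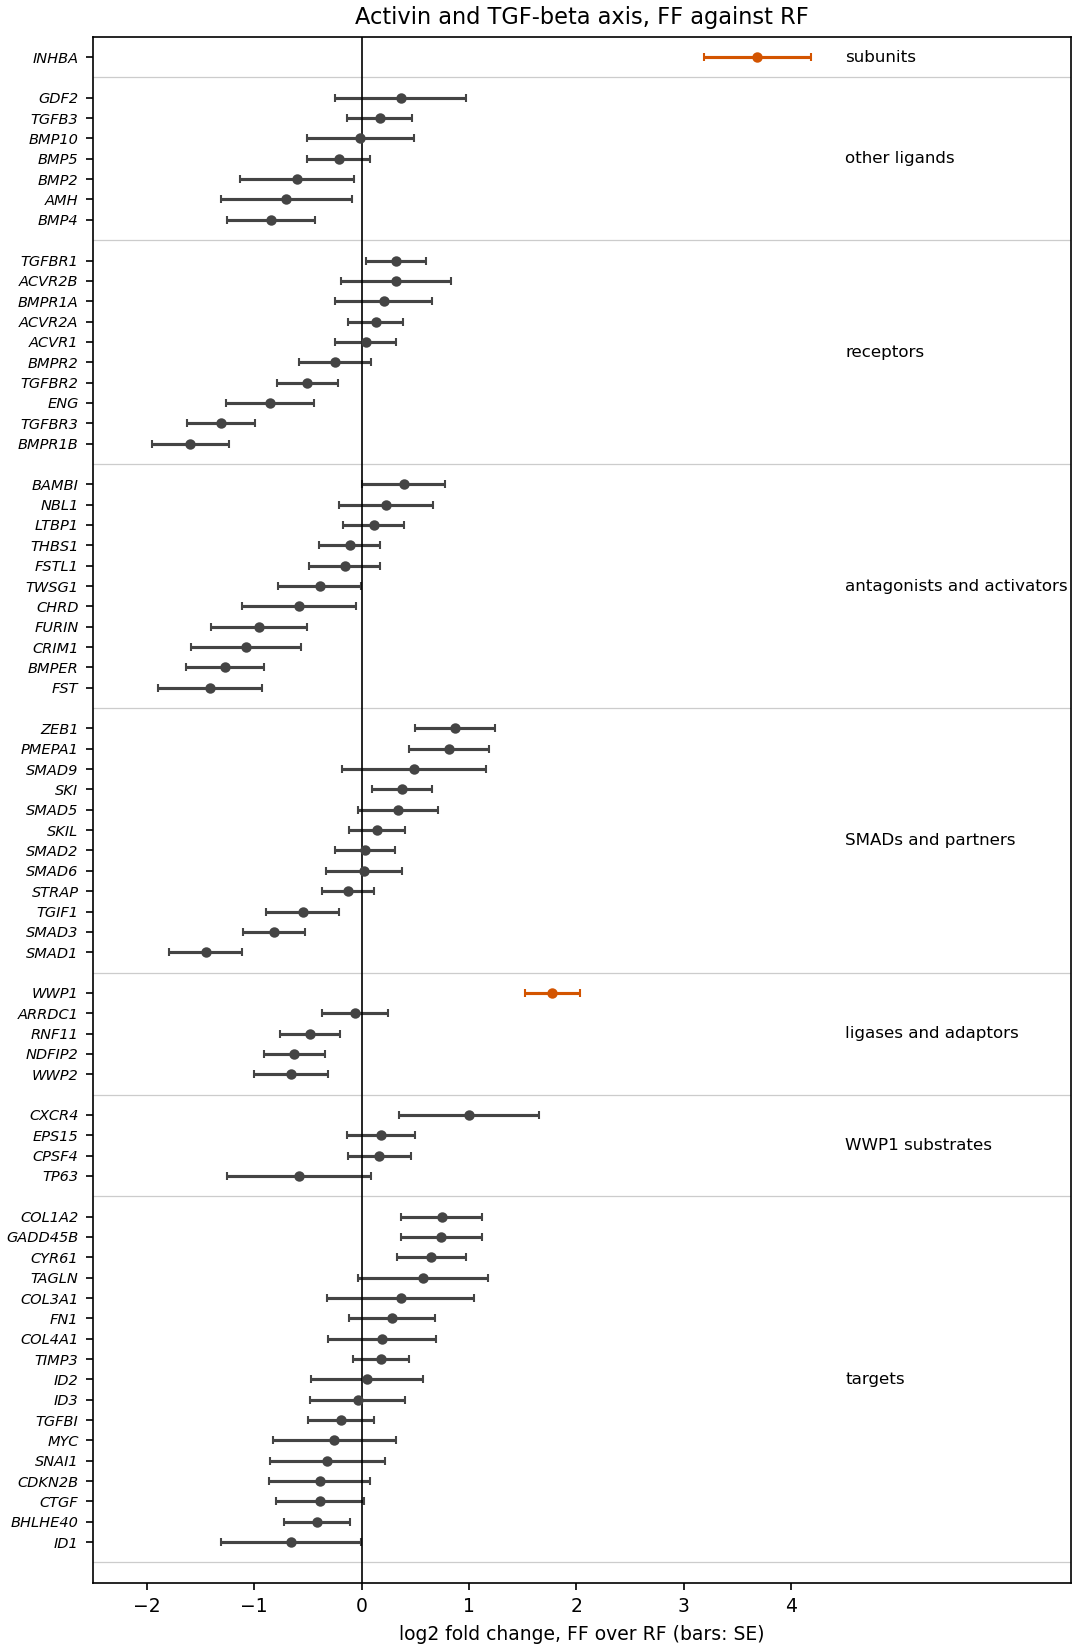
Log2 fold changes (FF over RF, horizontal axis) with SE bars for the tested genes of the activin and TGF-beta axis, grouped by role from subunits at the top to reported targets at the bottom, each gene shown once. INHBA at 3.68 and WWP1 at 1.77 (orange) lie to the right of all other genes, which span -1.60 to 0.996.

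The ligands of the family other than activin did not pass the test. Of 7 tested, 2 lay above 0 and the median log2 fold change was -0.21, with 0 at an adjusted or unadjusted p under 0.05 in edgeR and 0 by DESeq2. Of all tested genes 0.0464% passed in edgeR and 1.83% in DESeq2. Before adjustment 4.41% were higher and 4.94% lower in edgeR, so 0 of 7 lies near these shares. BMP4, a bone morphogenetic protein, averaged 60.0 ± 16.4 CPM in FF (SD, n = 2) and 108 ± 43.0 CPM in RF (SD, n = 3), at -0.84 ± 0.41 on the log2 scale (-0.56 without RF1). AMH, the hormone that regresses the Müllerian ducts, lay at -0.70 ± 0.61 (-0.25 without RF2, -0.32 without FF2 and -1.35 without FF1), and BMP2 at -0.60 ± 0.53.

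The type II receptors of activin, and several receptors of its relatives, had log2 fold changes of -0.51 to 0.32. The type I receptors ACVR1B and ACVR1C were not analysed here. ACVR2A was at 68.5 and 87.3 CPM in FF1 and FF2 and at 73.4, 63.2 and 76.6 CPM in RF1, RF2 and RF3. Its log2 fold change was 0.13 ± 0.26, turning to -0.04 without FF2 (0.29 without FF1). ACVR2B was scarce, at 2.67 and 3.27 CPM in FF and 2.10 to 2.59 CPM in RF (0.32 ± 0.52). Its FF hens lay above all RF hens, as in 13.1% of all tested genes. The type I receptor ACVR1, which also serves bone morphogenetic proteins, had a log2 fold change of 0.04 ± 0.28, which turned to -0.25 without FF2 (0.28 without FF1). TGFBR1, the type I TGF-beta receptor and a reported WWP1 substrate, lay at 0.32 ± 0.28, and its type II partner TGFBR2 at -0.51 ± 0.29. For TGFBR2 both FF hens lay below all RF hens, as in 13.9% of all tested genes. BMPR2 lay at -0.25 ± 0.33 and turned to 0.09 without FF1 (-0.67 without FF2).

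Of the other receptors, BMPR1B, TGFBR3 and endoglin lay lower in FF. BMPR1A lay at 0.20 ± 0.45 with overlapping groups (-0.08 without RF2). Of the 10 receptors 5 lay above 0 and the median log2 fold change was -0.11. In edgeR 0 passed, and before adjustment 0 higher and 2 lower were under 0.05 (4.41% and 4.94% of all tested genes). DESeq2 called 1 lower, and 1.83% of all tested genes in either direction. BMPR1B, a type I receptor of bone morphogenetic proteins, was at 7.59 and 4.73 CPM in the FF hens and at 18.4, 20.3 and 18.5 CPM in RF1, RF2 and RF3. Its log2 fold change was -1.60 ± 0.36 (edgeR adjusted p = 0.266, DESeq2 adjusted p = 0.0259, range over 13 alternatives 0.0259 to 0.685). TGFBR3, betaglycan, the co-receptor through which inhibin gains its hold on activin receptors, was at 9.03 and 12.0 CPM in FF and at 30.1, 23.8 and 23.6 CPM in RF. That gave -1.31 ± 0.32 (edgeR adjusted p = 0.314). In BMPR1B and TGFBR3 every FF hen lay below every RF hen, as in 13.9% of all tested genes. Endoglin (ENG), the TGF-beta co-receptor of endothelial cells, lay at -0.85 ± 0.41 (-1.57 without FF1 and -0.37 without FF2). The 4 endothelial markers in the table also lay below 0 (median -0.71). Of them 0 passed by edgeR or DESeq2. In edgeR 2 were under 0.05 before adjustment, where 4.94% of all tested genes were lower at that level. In 2, KDR and LYVE1, both FF hens lay below all RF hens, as in 13.9% of all tested genes, and 2 had overlapping groups. The summed level of the 4 markers was 167 and 212 CPM in FF and 281 to 333 CPM in RF. In that list KDR, the main receptor for vascular endothelial growth factor, lay at -1.03 ± 0.36, and its part and that of the other endothelial markers in the receptor values was not tested.

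FST, whose product binds activin, lay on the other side of 0 from INHBA. It stood at 22.4 and 21.8 CPM in FF1 and FF2, and at 33.4, 45.2 and 97.9 CPM in RF1, RF2 and RF3. The FF hens lay below all RF hens, as in 13.9% of all tested genes, and RF3 stood highest. The log2 fold change was -1.41 ± 0.48 (-0.83 without RF3; edgeR adjusted p = 0.461), short of the threshold. The ratio of INHBA to FST CPM was 2.63 in FF1 and 8.80 in FF2, and 0.303, 0.175 and 0.112 in RF1, RF2 and RF3. It takes no account of transcript length, so its change between hens can be read and its size cannot. As INHBA was chosen for its difference, that change is a description.

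The remaining antagonists and activators were mixed. Of 11 tested, FST included, 3 lay above 0 and the median was -0.39. In edgeR 0 passed, and before adjustment 0 higher and 2 lower were under 0.05 (4.41% and 4.94% of all tested genes). DESeq2 called 0. BMPER, which binds bone morphogenetic proteins, was at 7.59 and 10.5 CPM in FF and 26.6, 16.4 and 22.0 CPM in RF (-1.27 ± 0.36, edgeR adjusted p = 0.387). The protease gene FURIN, whose product cuts activin and TGF-beta precursors, lay at -0.96 ± 0.45 (-1.80 without FF1 and -0.42 without FF2). For BMPER and FURIN both FF hens lay below all RF hens, as in 13.9% of all tested genes. BAMBI, a decoy receptor, lay at 0.39 ± 0.39 (0.02 without FF2, 0.69 without FF1 and 0.77 without RF1), and FSTL1, a relative of follistatin, at -0.16 ± 0.33, turning to 0.06 without RF2.

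Among intracellular carriers of the signal, the 2 SMADs that activin receptors phosphorylate had unlike values. SMAD2 was at 16.6 and 17.5 CPM in FF and 17.9, 16.2 and 15.9 CPM in RF, which gave 0.03 ± 0.28 on the log2 scale. SMAD3 was at 55.2 and 44.7 CPM in FF and 109, 79.3 and 76.2 CPM in RF, which gave -0.82 ± 0.29 (edgeR adjusted p = 0.485). SMAD1, which carries bone morphogenetic protein signals, was at 25.4 and 35.3 CPM in FF and 64.0, 74.6 and 110 CPM in RF (-1.45 ± 0.34, edgeR adjusted p = 0.282, DESeq2 adjusted p = 0.0171, range over 13 alternatives 0.0171 to 0.781). For SMAD3 and SMAD1 both FF hens lay below all RF hens, as in 13.9% of all tested genes. The relatives of SMAD1 lay above 0 with overlapping groups. SMAD5 was at 0.34 ± 0.37 (-0.07 without FF2 and 0.66 without FF1), and SMAD9, from at most 2.55 CPM, at 0.49 ± 0.67.

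The list of SMADs and partners had 12 tested genes, 8 of them above 0, and a median of 0.09. In edgeR 0 passed, and before adjustment 1 higher and 2 lower were under 0.05 (4.41% and 4.94% of all tested genes). DESeq2 called 1 lower, and 1.83% of all tested genes in either direction. The higher one was ZEB1, a repressor that partners SMADs, at 37.7 and 87.3 CPM in FF and 32.6 to 36.5 CPM in RF (0.87 ± 0.37, but 0.16 without FF2 and 1.35 without FF1). SKIL, a SMAD repressor, lay at 0.14 ± 0.26 (0.25 without FF1 or with library totals alone, 0.27 without RF1 and at most 0.06 without FF2 or RF2).

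Of 16 listed ligases and adaptors 5 were in the table, of which WWP1 and WWP2 are NEDD4 family ligases. NEDD4, NEDD4L, ITCH, SMURF1 and SMURF2 were not analysed here. With all 5 hens and the scaling used here, WWP1 was the one gene of the 5 above 0. Its closest relative in the table, WWP2, was at 155 and 85.4 CPM in FF and 215, 204 and 152 CPM in RF, with overlapping groups and a log2 fold change of -0.66 ± 0.34 (-1.16 without FF1 and -0.28 without FF2). NDFIP2, an adaptor that activates NEDD4 family ligases, was at 403 and 453 CPM in FF and 733, 601 and 649 CPM in RF, at -0.63 ± 0.28. RNF11, a small RING protein reported as a partner and substrate of WWP1, lay at -0.48 ± 0.28, and the arrestin-like adaptor ARRDC1 at -0.06 ± 0.31, turning above 0 with library totals alone, with the replicate block and without FF2 or RF3. Of these 4 genes other than WWP1, 0 passed by edgeR, 0 were under 0.05 before adjustment, and 0 were called by DESeq2, with a median of -0.55. Of all tested genes 0.0464% passed in edgeR and 1.83% in DESeq2. Before adjustment 4.41% were higher and 4.94% lower in edgeR, so 0 of 4 lies near these shares.

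Genes of reported WWP1 substrates and of activin or TGF-beta targets did not pass either. Of 7 tested substrates 5 lay above 0 (median 0.16), and 0 passed by edgeR, 0 at an unadjusted p under 0.05 and 0 by DESeq2. A count of 0 in 7 lies near the shares of all tested genes. These were 0.0464% by edgeR, 1.83% by DESeq2, and 4.41% higher and 4.94% lower before adjustment in edgeR. The chemokine receptor CXCR4 led the substrates at 0.996 ± 0.65, from only 0.587 to 2.91 CPM. Of 20 tested targets 11 lay above 0 with a median of 0.10. In edgeR 0 passed, and before adjustment 0 higher and 1 lower, FST, were under 0.05 (4.41% and 4.94% of all tested genes). DESeq2 called 0. PMEPA1, a SMAD-induced feedback inhibitor, was at 12.1 and 10.9 CPM in FF and 8.00, 4.99 and 6.54 CPM in RF (0.82 ± 0.37), and CYR61, a matrix-associated growth regulator, lay at 0.65 ± 0.32 (0.32 without FF2). The ID genes, targets of bone morphogenetic proteins, lay at -0.66 ± 0.65 (ID1), 0.05 ± 0.52 (ID2) and -0.03 ± 0.44 (ID3). The value of ID1 turned to 0.03 without FF2 (-2.17 without FF1), that of ID2 to -0.63 without FF2 (0.52 without FF1) and that of ID3 to 0.48 without FF2 (-0.82 without FF1). For the stellate cell and fibroblast markers, which share collagen genes with the targets, the summed level was 1390 CPM in FF1, 601 CPM in FF2 and 574 to 866 CPM in RF. COL3A1 alone held 787 CPM in FF1 and 124 CPM in FF2, so the sum weighs abundant genes most. Of the 7 tested markers 5 lay above 0 (median 0.36) and 0 passed. In 2, LUM and ACTA2, both FF hens lay above all RF hens, as in 13.1% of all tested genes. The part of these markers in the target values was not tested.

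The tested genes whose profile lay nearest to each of the 2 were ranked by the root mean square difference of log2 CPM values, each centred on the gene's mean over the 5 hens. Nearest to INHBA was AACS, which activates acetoacetate for lipid synthesis, at a difference of 0.42. It was followed by C5ORF13 (0.63), TRIM7 (0.66), the spindle checkpoint kinase BUB1 (0.67) and GATM (0.71), which makes the creatine precursor guanidinoacetate. Of these, C5ORF13 was at 25.2 and 54.2 CPM in FF and 3.06 to 10.05 CPM in RF, and TRIM7, a ubiquitin ligase gene, at 4.72 and 21.1 CPM in FF and 0.706 to 2.34 CPM in RF. All 5 stood highest in FF2, as INHBA did, which follows largely from ranking genes by nearness to the INHBA profile.

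The profile of WWP1 had closer company. Nearest was SKP2, the substrate-binding part of an SCF ubiquitin ligase, at a difference of 0.21, with 42.9 and 43.3 CPM in FF and 11.2 to 13.9 CPM in RF. DHCR7, which makes cholesterol in its last step, followed at 0.22 and AP3S1, a subunit of a vesicle adaptor, at 0.25. The kinase MAPK6 lay at 0.25 too, and CYP7A1, which starts bile acid synthesis from cholesterol, at 0.29. INHBA and WWP1 differed by 0.95, which made WWP1 the 14th nearest gene to INHBA and INHBA the 2337th nearest to WWP1. A gene with a large contrast can have few near neighbours on this measure, and as all profiles hold the FF against RF contrast, nearness is a description over 5 hens.

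**Figure D3:**
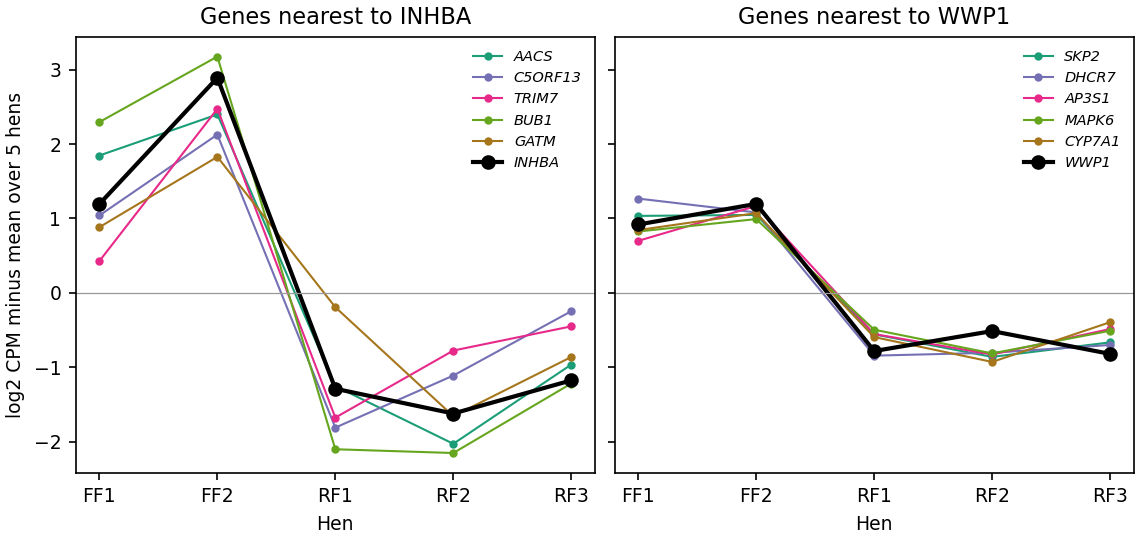
Log2 CPM of INHBA (left, black) and WWP1 (right, black) and of the 5 tested genes nearest to each (coloured), each centred on its mean over the 5 hens; lines join the hens as a guide only. INHBA spans -1.62 (RF2) to 2.89 (FF2) and WWP1 -0.82 (RF3) to 1.20 (FF2), and the genes around WWP1 lie closer to it than those around INHBA.

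In the GRCg7b annotation, which differs from the build named for these data and is used only for gene order, INHBA and WWP1 lie on the same chromosome with no annotated gene overlapping either. The nearest tested genes around INHBA lay above 0, with smaller differences than INHBA. VPS41, 18 annotated genes to one side, had a log2 fold change of 0.52 ± 0.31 (0.22 without FF2 and 0.77 without FF1). It was at 51.5 and 76.0 CPM in FF and 32.6 to 50.5 CPM in RF, without overlap, as for 13.1% of all tested genes with FF above RF. GLI3, a transcription factor of hedgehog signalling 3 genes to the other side, lay at 0.47 ± 0.66, from 4 to 11 counts (-0.14 without FF2 and 0.98 without FF1). Around WWP1, CA2, a carbonic anhydrase gene 3 genes away, was at 133 and 120 CPM in FF and 64.3, 90.5 and 55.8 CPM in RF. Its log2 fold change was 0.85 ± 0.29 (edgeR adjusted p = 0.461), and FF lay above RF without overlap, as for 13.1% of all tested genes. FAM82B, the next gene on the other side, was at 51.3 and 98.5 CPM in FF and 28.7, 52.3 and 55.4 CPM in RF, with overlapping groups (0.72 ± 0.40, but 0.19 without FF2, 0.47 without RF1 and 1.11 without FF1). ATP6V0D2, a proton pump subunit that directly neighbours WWP1 opposite FAM82B and was picked with its values known, fell below the filter, with 9 and 12 counts in FF1 and FF2 and 1, 1 and 3 in RF1, RF2 and RF3.

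**Figure D4:**
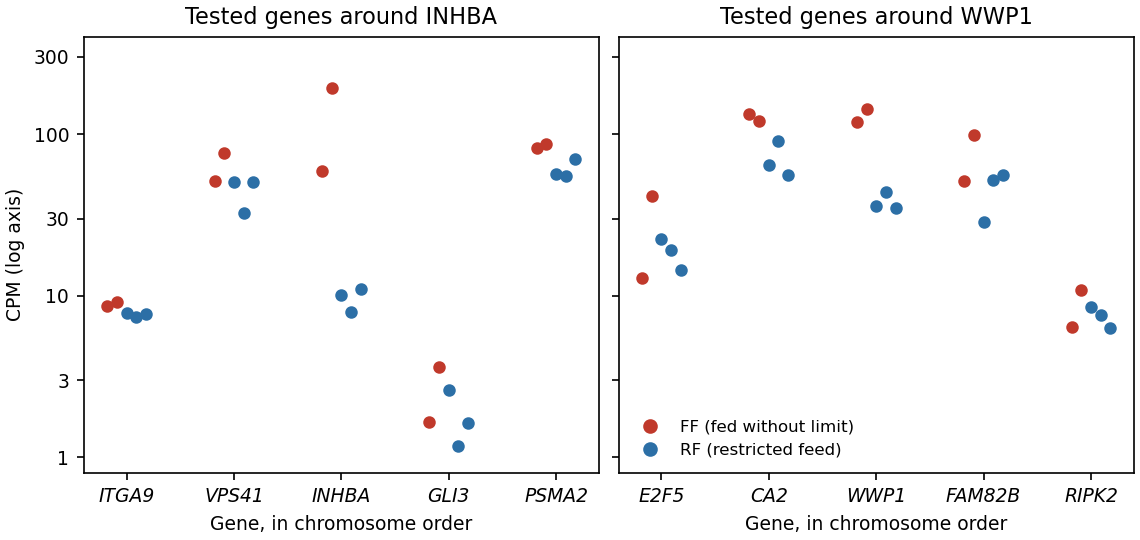
CPM on a log axis in each hen for the tested genes nearest to INHBA (left) and WWP1 (right), up to 2 on each side in GRCg7b gene order and not to scale. INHBA (58.9 and 192 CPM in FF, at most 10.98 in RF) and WWP1 (118 and 143 CPM in FF, at most 43.5 in RF) have the widest gaps between FF (red) and RF (blue).

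The sizes of both differences were recomputed with other scalings, filters and tests and without each hen. INHBA lay higher in FF under all 13 alternatives, with log2 fold changes of 2.61 to 4.29, and WWP1 under all 13 as well, at 1.64 to 1.90. With no hen left out, the alternatives gave 3.44 to 3.78 for INHBA and 1.72 to 1.87 for WWP1. The 1.72 came from the replicate block, where RF3 is alone in its block and adds nothing to the contrast. The lowest WWP1 value of the others was 1.77, without the filter on low counts. Since the groups of the chosen genes do not overlap, the constant direction follows from how they were chosen.

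**Figure D5:**
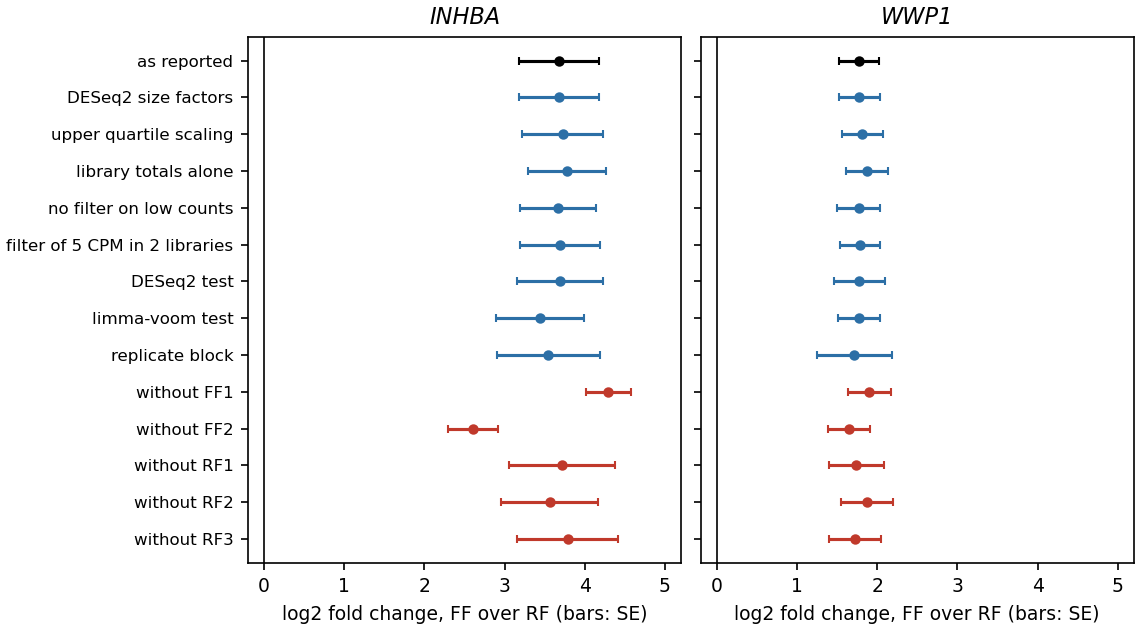
Log2 fold change (FF over RF, horizontal axis) with SE bars for INHBA (left) and WWP1 (right) as reported (black), under other scalings, filters and tests (blue) and without each hen (red). INHBA moves most without FF2 (2.61) and without FF1 (4.29); WWP1 stays between 1.64 and 1.90.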

How the data were processed

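Liver RNA from 2 FF and 3 RF hens was sequenced from strand-specific libraries, per the labels' protocols. The deposited table gives each hen a column of estimated counts by gene symbol. The submitters' processing notes name galGal4, edgeR, Cuffdiff 2.2.1, TopHat2 2.0.13 and FastQC, without role or order. How reads were counted, with which annotation and whether by strand, is not given in the sources used here. Of 6286 entries 51 held values that were not whole, neither INHBA nor WWP1 among them, and all were rounded. For 1240 entries every hen is listed at 0, which was not read as absence.

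Genes were filtered with filterByExpr (minimum count 10), scaled by the trimmed mean of M values and tested with edgeR 4.0.16 (glmQLFit, glmQLFTest, two-sided, feeding group as sole term) in R 4.3.3, with Benjamini-Hochberg adjustment over 4309 genes and a threshold of 0.05. SE is the absolute log2 fold change divided by the root of F. Alternatives used DESeq2 1.42.0, limma 3.58.1, other scalings (DESeq2 size factors, upper quartile, library totals alone), no filter, a filter of 5 CPM in 2 libraries, a replicate block and each hen left out. The steps were tested on simulated counts with planted differences, where the spread between hens followed the trend over all genes. A library that stands apart, as FF2 does, was not simulated. Each library is a separate hen. The genes, lists and rules were chosen with earlier results of these data known. Named were the core genes of the axis, up to 3 members per list with the smallest p, the 5 nearest profiles and the nearest tested neighbours. Of the core genes, ACVR1B, ACVR1C, FSTL3, SMAD4, SMAD7, NEDD4, NEDD4L, ITCH, SMURF1, SMURF2, NDFIP1, KLF2, KLF5 and HAMP were not analysed here. Gene names were matched to the RefSeq GRCg7b table, where 5575 entries had a match.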

Additional observations from a re-analysis of the deposited data

How the results depend on the processing

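Leaving out single hens gave log2 fold changes of 2.61 to 4.29 for INHBA and 1.64 to 1.90 for WWP1. Leaving out single RF hens gave 0 to 8 genes past the threshold by the edgeR quasi-likelihood test, against 2 with all hens. The count was 0 without RF1 or RF2, with 235 and 236 at an unadjusted p under 0.05, and 8 without RF3. Without FF1 or FF2 the FF group is 1 hen, so no gene counts are given for those fits. Without the filter on low counts 6 genes passed, with the filter of 5 CPM 1, and by DESeq2 79. DESeq2 called 1 of the receptors and 1 of the SMADs and partners, where edgeR called 0; in the other lists, and in these under the remaining alternatives, the count was 0. Library totals alone moved the median log2 fold change of all genes up by 0.10. Across groups the hens share only the replicate number in the sample titles, and the labels name no pairing. Deviations from the group means, for hens with the same replicate number, correlated at -0.14 (number 1) and -0.36 (number 2) across genes, which are not replicates. With 2 FF hens the deviations of FF1 and FF2 mirror each other, so FF1 with RF2 gave 0.36 and FF2 with RF1 gave 0.14. These correlations therefore cannot show whether hens were paired. In the replicate block RF3 stood alone and so added nothing to the contrast. With that block INHBA lay at 3.55, WWP1 at 1.72, and 6 genes passed. With 2 FF hens, the spread within that group rests on a single difference, and FF2 has the lowest total.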
